A study of Mus musculus with 4 samples.

Results

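The 9 genes described here were grouped as genes of islet glucose sensing and of the ATP-sensitive potassium (KATP) channel. The group holds the glucose transporter genes Slc2a1 and Slc2a3, the hexokinase genes Hk1 and Hk2, and the glycolytic regulator Pfkfb2. It also holds the mitochondrial enzyme genes Pcx and Glud1, and Kcnj11 and Abcc8, which encode the channel subunits. Whether each takes part in glucose sensing in these cells was not tested. The 9 genes were chosen by name from 21887 protein-coding genes, with earlier results of these data known. For each, the summits of NKX2.2 binding inside the gene and within 10 and 50 kb of it were located. NKX2.2, a homeodomain transcription factor of islet endocrine cells, had been immunoprecipitated from alphaTC6 cells, a mouse line that the labels describe as alpha cells, and the bound DNA was sequenced (ChIP-seq). The series has 2 groups of 2 samples each, NKX2.2 ChIP and Input, the latter being DNA taken without the antibody. Both groups are alphaTC6 cells of genotype WT, and the labels give neither a treatment nor a time. All samples come from this line alone, and its identity was not checked here, because the data hold no RNA levels.

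The values are 1 list of 7384 summits that the authors called with MACS2, each with a score, the −log10 of the authors' q-value of ChIP against input. Scores ran from 2.03 upward with a median of 13.7, and a higher score means stronger statistical evidence of enrichment, not a measured number of bound molecules. The list has no value for a single library. Depth, replicate spread and any test between samples are therefore not given, and the counts below are descriptions set beside the same counts over all protein-coding genes. A gene without a summit is a gene where no peak passed the authors' threshold.

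Glucose enters islet cells through facilitative transporters and is trapped by phosphorylation, and its breakdown raises the ratio of ATP to ADP. The KATP channel, built of the pore subunit Kir6.2 (Kcnj11) and the sulfonylurea receptor SUR1 (Abcc8), closes when that ratio rises, which depolarizes the membrane. Alpha cells carry the same channel as beta cells, and closing it alters their electrical activity and glucagon release.

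Of the 9 genes, 3 had a summit in the gene or within 10 kb of it: Abcc8 with 5 summits, Slc2a3 with 2 and Pcx with 2. The share was 33.3% (95% Wilson interval 12.1% to 64.6%, which covers counting error only). Over all protein-coding genes 25.8% had a summit that near, so the count for the 9 genes lay close to the background. The same 3 genes had a summit inside the gene body, against 13.4% of all genes. That background rose with gene length. It was 21.7% for genes of 50 to 100 kb, the class of Slc2a3 and Abcc8, and 37.0% for longer ones, the class of Pcx. The median length was 49.4 kb for the 9 genes and 17.2 kb for all protein-coding genes. Within 50 kb Kcnj11 was added, and 4 of 9 compares with 43.8% of all genes. Slc2a1, Hk1, Hk2, Pfkfb2 and Glud1 had none within 50 kb. In all, 9 distinct summits lay within 10 kb and 10 within 50 kb. Their scores ran from 3.94 to 271 with a median of 17.0.

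**Figure D1:**
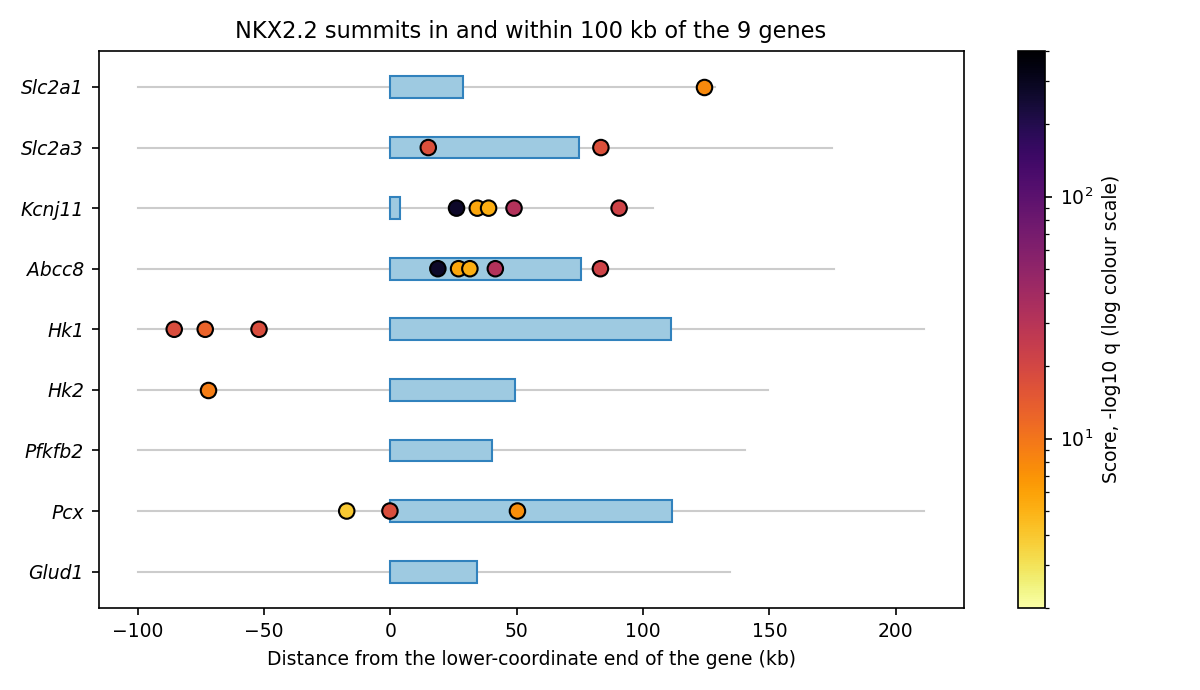
Map of the 9 genes, each drawn as a bar from its lower-coordinate end (distance 0, in kb) with 100 kb of flank on either side as a line; each dot is a summit, coloured by score on a log scale. The darkest dot is the Abcc8 summit with a score of 271, which also lies in the flank of Kcnj11, and the lines of Pfkfb2 and Glud1 hold no summit.

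The strongest binding call belonged to the KATP channel. Abcc8 (gene ID 20927; GRCm38 chromosome 7, 46104523 to 46180039, 75.5 kb) held 4 summits inside the gene. The first, at position 46123272, lay 18.7 kb from the gene's lower-coordinate end and had a score of 271. It ranked 95 of the 7384 summits, within the top 1.29%, and 7 of the 572 on chromosome 7. A summit inside the gene with a score at least as high was found in 54 protein-coding genes, Abcc8 included, or 0.247% of them. This 1 site stood far above the other summits of the gene.

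The next summits, at positions 46131483 and 46135955, had scores of 5.67 and 5.21, in the lowest part of the list at ranks 6415 and 6587. The fourth, at 46146032, had a score of 31.8 and ranked 1549. All 4 fell within the 41.5 kb of Abcc8 nearest to Kcnj11, and the remaining 34.0 kb of the gene held none. Another summit lay outside, 7.6 kb beyond the higher-coordinate end at position 46187633, with a score of 21.3 and rank 2450. Neighbouring summits of the gene were 8.2, 4.5, 10.1 and 41.6 kb apart.

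The summit before the 5 Abcc8 summits on the chromosome was 206.6 kb away, and the next after them 266.6 kb away. In or within 500 kb of the gene there were 17 summits, these 5 included. The median over all protein-coding genes, counted in the same way, was 4 and the upper quartile 8. Having 5 or more summits in or within 10 kb was uncommon, at 0.334% of protein-coding genes (73 of 21887). A summit with a score of 100 or more in that window was found for 1.65% of genes, and among the 9 genes for Abcc8 alone. Of the 19458 genes shorter than 100 kb, 12 had 4 or more summits inside the gene, and Abcc8 was one of them. Most of these genes are shorter than Abcc8. In its own length class, 50 to 100 kb, 9 of 2516 genes had as many, or 0.358%.

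Kcnj11 (gene ID 16514; chromosome 7, 46097123 to 46100952, 3.8 kb) encodes the pore of the same channel and lies next to Abcc8 with 3.57 kb between them. It had no summit within 10 kb. Its nearest was the Abcc8 summit with the score of 271, at a distance of 22.3 kb, and the other 3 summits inside Abcc8 lay 30.5, 35.0 and 45.1 kb away. All 5 summits within 100 kb of Kcnj11 were on the Abcc8 side. Counting each summit only for the protein-coding gene nearest to it left Kcnj11 with none, since all of these belonged to Abcc8. The nearest listed start to the summits inside Abcc8 was that of Gm51481, named after its value was seen, 19080 bases from the highest summit. Neither Kcnj11 nor Abcc8 had a listed start to compare. Which gene a summit acts on, of the pair or another, cannot be read from its position.

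**Figure D2:**
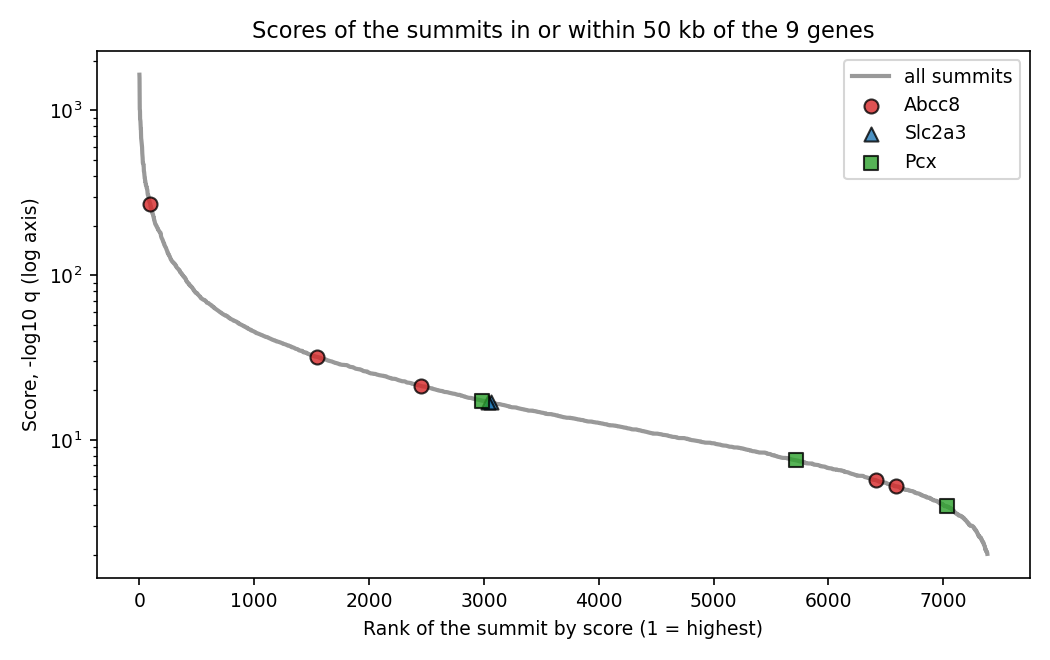
Score (−log10 q, log axis) of all 7384 summits in order of rank (grey line), with the 10 summits in or within 50 kb of the 9 genes marked by the gene nearest to them among the 9. The highest Abcc8 summit sits at rank 95, the Slc2a3 pair and the Pcx promoter summit lie together between ranks 2988 and 3063, and the lowest is a Pcx flanking summit with a score of 3.94.

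The other KATP subunit genes are Abcc9 (SUR2) and Kcnj8 (Kir6.1), whose products together build the channel of vessels. Abcc9 had 1 internal summit (chromosome 6, position 142614450), scored at 4.39 and ranked 6888. Kcnj8 had none within 10 kb, and its nearest was this Abcc9 summit, 42.8 kb away. The receptor genes are the long ones of the family. Abcc9 spans 114.9 kb, and 41.8% of all genes of 100 kb or more had a summit in or within 10 kb. For genes of 50 to 100 kb, the class of Abcc8, the share was 32.2%. Kcnj8 spans 6.8 kb and, like Kcnj11, falls among the genes under 20 kb, of which 20.6% had one in or within 10 kb. Whether length bears on these 4 genes was not tested.

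The glucose transporter genes differed from each other. Slc2a3 (GLUT3, a high-affinity transporter best known from neurons; gene ID 20527; chromosome 6, 122727809 to 122802363) had 1 summit inside the gene and 1 in its flank. The inner summit, at position 122742769, lay 15.0 kb from the lower-coordinate end with a score of 16.9 and rank 3063. No start of Slc2a3 was listed, so whether this summit lies at a start of the gene is not known. The outer one, at 122811104, lay 8.7 kb beyond the higher-coordinate end and had a score of 17.1 and rank 3034. The scores of the pair were nearly equal, although 68.3 kb separated them. The outer summit lay between genes, 8741 bases from Slc2a3 and 9080 bases before the listed start of Foxj2, a forkhead transcription factor gene. On either side of this pair the next summits on the chromosome were 251.0 and 1603.2 kb away.

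The annotated spans of Slc2a3 and Abcc8 are of almost the same length, 74.6 and 75.5 kb, and held 1 and 4 summits. These spans cover predicted as well as curated RefSeq transcripts, 5 predicted beside 1 curated for Slc2a3 and 11 beside 2 for Abcc8, so the length that is transcribed in these cells may differ. In or within 500 kb of the gene there were 5 summits for Slc2a3 and 17 for Abcc8. These counts include the 2 and 5 summits in or within 10 kb of the genes.

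Slc2a1 (GLUT1, the widely expressed basal transporter; gene ID 20525; chromosome 4, 119108745 to 119137330) had no summit in the gene or within 50 kb. Its nearest lay 95.6 kb away at position 119232901 and scored 7.86, and that summit was 14 bases before the listed start of P3h1, a gene of collagen modification named here after its values were seen. The transporter Slc2a2 (GLUT2), the main glucose transporter of rodent beta cells, had its nearest summit 77.1 kb away.

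No summit was called at the hexokinase genes, whose enzymes phosphorylate glucose with high affinity. Hk1 (gene ID 15275; chromosome 10, 62268855 to 62379920) had its nearest summit 52.1 kb away at position 62216800, just outside the 50 kb window, with a score of 17.7. It lay inside Tspan15, a tetraspanin gene, as did a summit 73.3 kb from Hk1. Hk2 (gene ID 15277; chromosome 6, 82725025 to 82774454) had its nearest summit 72.1 kb away, at position 82652913 and with a score of 9.07, 39 bases before the listed start of Pole4, a DNA polymerase subunit gene. Tspan15 and Pole4 were named after their values were seen.

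Pfkfb2, whose enzyme makes and breaks down the glycolytic activator fructose 2,6-bisphosphate, had the second most distant summit of the 9 (gene ID 18640; chromosome 1, 130689043 to 130729253). The nearest lay 364.8 kb away, and 22.2% of protein-coding genes were as far or farther from a summit. Within 500 kb it had 2 summits.

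Pcx (pyruvate carboxylase, which feeds pyruvate into the citric acid cycle as oxaloacetate; gene ID 18563; chromosome 19, 4510472 to 4621752) had a summit at a listed start. RefSeq promoter windows of GRCm38.p6, from 250 bases before to 50 bases after a start, were at hand for 6 of the 9 genes: Slc2a1, Hk1, Hk2, Pfkfb2, Pcx and Glud1. Slc2a3, Kcnj11 and Abcc8 had no entry, so a summit at a start of these genes could not be recognized. A summit fell in a listed window of 1 of these 6 genes, against 7.73% of the 17492 protein-coding genes with such windows. The Pcx summit at position 4510248 was 224 bases before the first listed start, with a score of 17.2 and rank 2988. The second Pcx summit, at 4560735, lay inside the gene, 50.3 kb from the first start and 33584 bases before the other listed start, with a score of 7.49. A weaker one, with a score of 3.94, lay 17.3 kb before the gene at position 4493148 and was nearer to 2010003K11Rik than to Pcx.

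The 250 bases before each Pcx start are shown because 1 of them holds the summit and the other does not, and those of Slc2a1 because it is the transporter start without a summit. They are RefSeq sequences of GRCm38.p6, plus strand, at chr19:4510222-4510471, chr19:4594069-4594318 and chr4:119108495-119108744. Capitals mark matches to TNAAGTG, a core of NKX2 type sites, to CCNCNCCC, a KLF type (GC box) sequence, or to TGTTTAC, a FOXA type sequence, searched on both strands with overlapping matches joined.
Pcx, first start (the summit is base 27): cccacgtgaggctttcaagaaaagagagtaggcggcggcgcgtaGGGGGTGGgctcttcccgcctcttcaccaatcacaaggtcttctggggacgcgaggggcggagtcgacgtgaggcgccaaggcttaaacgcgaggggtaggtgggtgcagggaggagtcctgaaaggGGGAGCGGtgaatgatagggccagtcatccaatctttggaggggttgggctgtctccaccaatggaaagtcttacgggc
Pcx, second start (no summit): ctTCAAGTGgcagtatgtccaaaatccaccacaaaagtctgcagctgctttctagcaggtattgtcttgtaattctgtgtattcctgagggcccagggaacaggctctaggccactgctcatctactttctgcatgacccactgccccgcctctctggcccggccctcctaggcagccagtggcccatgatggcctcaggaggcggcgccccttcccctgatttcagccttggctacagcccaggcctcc
Slc2a1 (no summit): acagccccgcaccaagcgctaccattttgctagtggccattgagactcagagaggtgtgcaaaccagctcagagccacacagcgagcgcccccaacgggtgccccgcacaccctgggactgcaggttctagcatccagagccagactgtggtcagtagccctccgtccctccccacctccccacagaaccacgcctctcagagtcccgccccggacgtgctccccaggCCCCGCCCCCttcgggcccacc

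The Pcx window with the summit held 2 KLF type matches and neither of the other motifs. Its nearer KLF type match begins at base 45, 18 bases after the summit. The second Pcx start held the only NKX2 type match in the 10 listed windows of the 6 genes, at bases 3 to 9, where no summit was called. Slc2a1 had 2 overlapping KLF type matches and no summit. Over all 21263 promoter windows of protein-coding genes, 10.8% held TNAAGTG, 56.6% held CCNCNCCC and 3.01% held TGTTTAC. Among the 1451 windows with a summit the shares were 9.44%, 70.6% and 2.34%. Of the 10 windows, 7 held the KLF type sequence, which is common in GC-rich promoters, so a match in a single promoter distinguishes little.

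Hk1 and Pcx, with annotated spans of 111.1 and 111.3 kb, form another pair of nearly equal length; 7 of the 9 transcripts of Hk1 and 1 of the 3 of Pcx are predicted. Hk1 had no summit and Pcx had 2 within 10 kb. In or within 500 kb there were 10 summits for Hk1 and 14 for Pcx, the latter including those 2.

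Glud1 encodes glutamate dehydrogenase, the mitochondrial enzyme through which glutamate enters the citric acid cycle (gene ID 14661; chromosome 14, 34310727 to 34345033). It was the farthest of the 9 from a summit. The nearest lay 474.3 kb away and was the only one within 500 kb, and 18.4% of protein-coding genes were as far or farther. Chromosome 14 held 76 summits in all. On it 6.46% of protein-coding genes had a summit in or within 10 kb, so the lack of one at Glud1 was the usual state there. Whether the sparse calls on this chromosome bear on Glud1 was not tested.

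**Figure D3:**
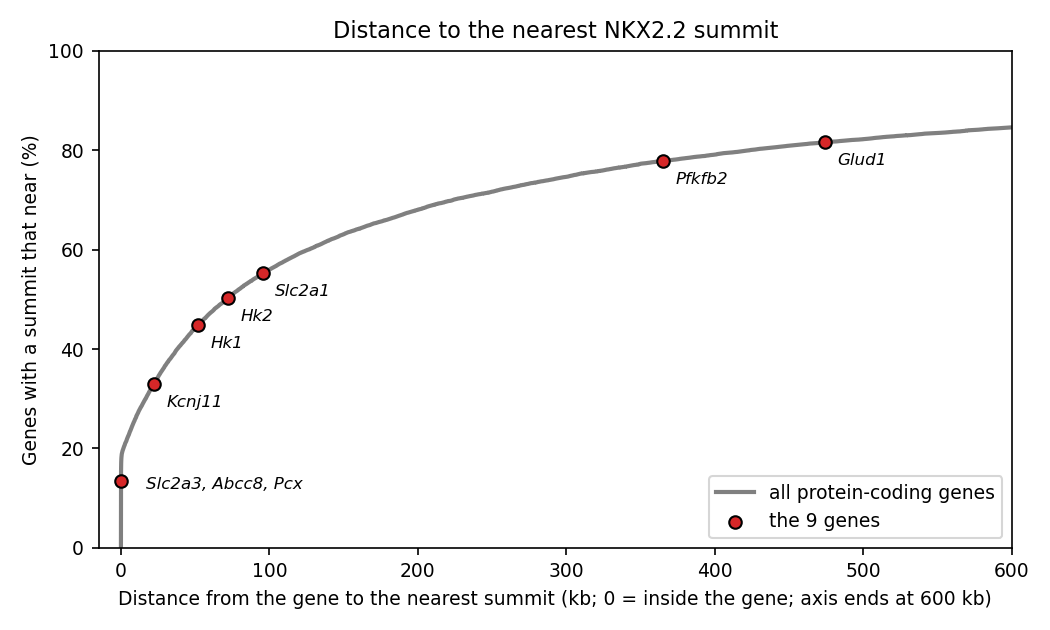
Cumulative share of protein-coding genes (percent, vertical axis) with a summit within a given distance in kb (horizontal axis); red points mark the 9 genes. Slc2a3, Abcc8 and Pcx hold a summit inside the gene (0 kb), Kcnj11 follows at 22.3 kb, Hk1, Hk2 and Slc2a1 lie between 52.1 and 95.6 kb, and Pfkfb2 and Glud1 lie at 364.8 and 474.3 kb.

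The median distance from a gene to its nearest summit was 52.1 kb for the 9 genes and 71.5 kb for the 21631 protein-coding genes on chromosomes with a summit. Over all protein-coding genes, the share with a summit in or within 10 kb rose with gene length. Whether length bears on the 9 genes was not tested. Among all genes under 20 kb, the class of Kcnj11, 20.6% had one in or within 10 kb. The share was 27.2% for genes of 20 to 50 kb, the class of Slc2a1, Hk2, Pfkfb2 and Glud1, none of which had one. It was 32.2% for 50 to 100 kb, where both Slc2a3 and Abcc8 had one, and 41.8% for 100 kb or more, where Pcx had one and Hk1 did not.

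A wider list of 78 genes of glucose transport, glycolysis, mitochondrial entry and the KATP family was examined in the same way. Of these, 32 had a summit in or within 10 kb, 41.0% (95% Wilson interval 30.8% to 52.1%), against 25.8% of all protein-coding genes. No test of this difference was made, and the list was chosen with earlier results of these data known. By gene length, 46.7% of the 45 listed genes under 20 kb had one, 38.9% of the 18 of 20 to 50 kb, 11.1% of the 9 of 50 to 100 kb and 3 of the 6 of 100 kb or more. The share was thus above that of all genes of the class in 3 of the 4 classes and below it in the class of 50 to 100 kb. At a score minimum of 20 it was 14.1% against 10.7% of all genes. By role, 6 of 12 transport genes, 2 of 8 hexokinase and glucose phosphate genes, 8 of 23 glycolytic genes and 15 of 33 mitochondrial, anaplerotic and shuttle genes had one. The median score of the highest summit was 11.6 over the 32 genes and 16.0 over all 5654 genes with one.

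**Figure D4:**
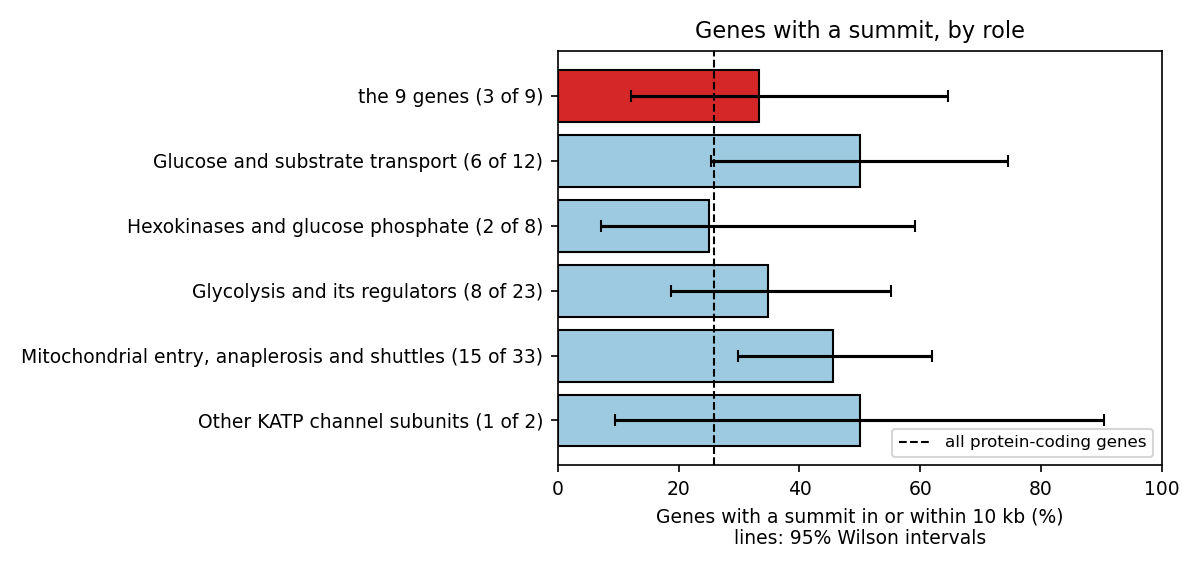
Percent of genes with a summit in or within 10 kb, for the 9 genes (red) and for the wider list by role (blue), with 95% Wilson intervals as lines and 25.8% of all protein-coding genes as the dashed line. The bar of the 9 genes, 33.3%, has an interval from 12.1% to 64.6% that includes the dashed line.

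The highest scores in the wider list were at Ldha and Gpd1. Ldha, the lactate dehydrogenase subunit gene whose expression is kept very low in beta cells, had a summit with a score of 601 and rank 23, 6805 bases outside the gene (chromosome 7, position 46835469). Gpd1, the cytosolic enzyme of the glycerol phosphate shuttle, had an internal one (chromosome 15, position 99723802) that scored 286 and ranked 86. Among the 9 genes and the 78, only Ldha, Gpd1 and Abcc8, with its 271, had a summit of 100 or more in or within 10 kb.

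Further down came Tpi1 (triose phosphate isomerase) with a score of 91.1, Pck1 (cytosolic phosphoenolpyruvate carboxykinase) with 79.5 and Gapdh (a glycolytic dehydrogenase) with 68.0. Ldhb (the other lactate dehydrogenase subunit) had a summit with a score of 41.0, Slc25a22 (a mitochondrial glutamate carrier) one with 39.4 and Pdp1 (a pyruvate dehydrogenase phosphatase) one with 39.1. The remaining ones named by the rule were Pkm (pyruvate kinase), with a score of 21.1, and Mdh1 (cytosolic malate dehydrogenase), with 20.9. For 23 of the 32 genes the highest summit had the gene itself as its nearest protein-coding gene. For the other 9 another gene was nearer, as Spsb2 was for Tpi1, Ncapd2 for Gapdh, Pidd1 for Slc25a22 and Wdpcp for Mdh1.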

How the data were processed

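NKX2.2 ChIP and Input libraries of alphaTC6 cells were compared by the authors, who deposited 1 list of single-base summits with a −log10 q-value per peak. The peak caller was MACS2 according to the series' design text, per the labels. Bowtie2, FastQC and the build mm10 (GRCm38) are named in the submitters' processing notes, without versions. Pooling of replicates and treatment of duplicate reads are not given in the sources used here, and either would change which weak peaks are listed. No score was under 2, which a q-value of 0.01 gives.

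Summit positions were counted from 1 (start + 1). Distances were taken to gene spans of the RefSeq table of GRCm38.p6, for 21887 protein-coding genes on the autosomes, X and Y. That table has no strand, so starts were taken from the RefSeq promoter table, which has entries for some genes only. A summit counted for every gene whose window held it. Another 4 summits lay off the assembled chromosomes and were left out of the counts by gene. All 78 symbols of the wider list were found. No test was run, because the list has no value per library; intervals on shares are 95% Wilson intervals. Alternatives changed the distance, the score minimum (5, 10 and 20), the merging of summits within 500 bp and the assignment to the nearest gene.

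The 9 genes and the wider list were chosen with earlier results of these data known. Named were the 9 genes; Slc2a2, Kcnj8 and Abcc9 in any case (a further such gene is not reported here); the 10 genes of the wider list with the highest summit within 10 kb; and the gene nearest to each summit within 50 kb. Other names were chosen after their values were seen. The counting was tested on simulated summits. Intervals came from scipy 1.17.1 and figures from matplotlib 3.10.9, under Python 3.11.15 with pandas 2.3.3.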

Additional observations from a re-analysis of the deposited data

How the results depend on the processing

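No paired analysis was possible because summits carry a single score each and none per library, and no replicate could be left out for the same reason. The 3 genes with a summit within 10 kb were also 3 in the gene body alone, within 1 kb, at score minimums of 5 and 10 and with summits counted for the nearest gene only. They became 7 within 100 kb and 1, Abcc8, at a score minimum of 20, where 10.7% of all protein-coding genes had one. Within 50 kb the 4 genes became 2 at a minimum of 20. Distinct summits fell from 9 to 3 within 10 kb at a minimum of 20, and from 10 to 6 and 3 within 50 kb at minimums of 10 and 20. Merging summits within 500 bp changed neither count. The wider list went from 32 genes to 14 in the gene body alone (17.9%, against 13.4% of all genes) and 52 within 50 kb (66.7% against 43.8%). At score minimums of 10 and 20 it had 18 and 11 (23.1% against 18.2%, and 14.1% against 10.7%), so the gap to all genes was narrower there than the 41.0% against 25.8% without a minimum. Fewer listed summits and narrower windows are the construction of these alternatives. Single genes gave 54 counts under alternatives, of which 46 were within 1.5 times the main count. The 8 others were at Slc2a3, Kcnj11, Abcc8 and Pcx. Many of the 46 could not have moved. Slc2a1, Hk1, Hk2, Pfkfb2 and Glud1 had no summit under any of these single-gene alternatives, of which only the 50 kb window could have added one. The 100 kb window was not among them, and within it Slc2a1 had 1 summit, Hk1 had 3 and Hk2 had 1. Pfkfb2 and Glud1 had none there either. With unknown depth, a missing summit shows only that no peak was called.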

Other observations

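Some genes of the wider list had a summit directly at a listed start. A summit fell in a promoter window of 9 of the 69 genes with an entry, 13.0%, against 7.73% over all protein-coding genes; the difference was not tested. The closest, named after its value was seen, was at G6pc2, an islet glucose-6-phosphatase gene, 8 bases from the start at position 69219941 of chromosome 2. Its score was only 5.78, rank 6370. The summit of Glul (glutamine synthetase, score 8.90) lay 63 bases from a listed start and that of Ldhb 110 bases. The highest summits at Pdk2 (a pyruvate dehydrogenase kinase, score 12.9), Pkm and Pdp2 (a pyruvate dehydrogenase phosphatase, score 12.5) lay 88, 161 and 235 bases from one. Glul, Pdk2 and Pdp2 were also named after their values were seen.

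Slc2a5, the fructose transporter gene, named after its values were seen, had 3 summits inside the gene, the highest with a score of 10.7 at position 150139314 of chromosome 4. Slc16a1 (the lactate and pyruvate transporter MCT1, also named after its value was seen), which like Ldha is kept very low in beta cells, had 1 summit 2366 bases outside the gene with a score of 3.76, rank 7078.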
